A study of Rattus norvegicus with 12 samples.

Results

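The comparison described here sets a rat beta-cell clone that carries human islet amyloid polypeptide (hIAPP) against a clone that carries the rat peptide (rIAPP). It uses the 2 gene-level arrays of each clone, 4 of the 12 deposited samples. The 6 exon-level samples of the same arrays were left out. So were the 2 gene-level arrays of the vector clone, except in 1 alternative fit. Of 36685 rows on the array, the 18511 with exactly 1 gene symbol were kept, and the brightest row of each symbol was taken, which gave 18154 genes.

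IAPP, also called amylin, is a short peptide hormone that beta cells cut from a precursor, store in insulin granules and release together with insulin. Human IAPP aggregates readily and forms the amyloid seen in islets in type 2 diabetes. The rat peptide carries prolines in the segment that drives aggregation and does not form amyloid. Setting a rat line with the human peptide against the same line with the rat peptide asks how cells that carry the amyloid-forming form differ from cells that carry the other.

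Both clones derive from INS1E, an insulin-secreting line of rat insulinoma origin, and both are stable transfectants, one with the human and one with the rat IAPP transcript. They were grown in the same medium, RPMI with 11.1 mM glucose, serum and the selection antibiotic geneticin, without further treatment, and were collected on day 3. Each transgene is represented by 1 clone in 2 samples, lettered a and b, and the promoter that drives the transgene is not given in the labels. The effect of the transgene and the difference between any 2 clones cannot be told apart. The labels do not say if a and b were grown separately, so that p-values may reflect technical spread alone.

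The arrays were of like quality. Their medians over all rows were 7.55 and 7.56 in the hIAPP arrays, against 7.53 and 7.55 in the rIAPP arrays. All levels below are log2 RMA values and all differences are hIAPP minus rIAPP on that scale, so that a difference of 1 is a doubling. Values correlated across genes at 0.9987 between the hIAPP arrays and at 0.9990 between the rIAPP arrays, and at 0.9953 to 0.9955 between arrays of different clones (Pearson r, over genes that are not independent replicates). The median SD was 0.0478 in hIAPP and 0.0390 in rIAPP. Markers of beta cells were bright in both clones: the insulin gene Ins1 had 12.60 and 12.74 in the hIAPP arrays, against 12.82 and 12.65 in the rIAPP arrays, and the glucose transporter Slc2a2 had 13.88 and 13.82 in the hIAPP arrays, against 13.94 and 13.87 in the rIAPP arrays. The glucagon gene Gcg was as bright, with means of 14.11 ± 0.0017 in hIAPP and 13.93 ± 0.0311 in rIAPP (SD, n = 2 each), and its difference did not pass the test (0.18, SE 0.0509, adjusted p = 0.0841).

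Iapp itself was among the brightest genes of both clones and was not called. Its level was 13.79 and 13.82 in the hIAPP arrays, against 13.90 and 13.92 in the rIAPP arrays (−0.10, SE 0.0501, adjusted p = 0.277, 95% interval −0.22 to 0.02). The 2 arrays of each clone lay close together and the clones did not overlap. The array's probes were designed for the rat gene, so this value reports endogenous and transfected rat Iapp together, and how far it reads the human transcript is not known. Genes around Iapp on chromosome 4 had a median difference of 0.18, and after that median was subtracted the difference of Iapp was −0.28 (adjusted p = 0.0204).

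Across the 18154 genes, 1780 differed between the clones at a Benjamini-Hochberg adjusted p under 0.05 in limma, 946 higher and 834 lower in hIAPP. These are 9.81% of genes, 5.21% higher and 4.59% lower. Most of the differences were small: 1370 of the 1780 were under 0.5, their median size was 0.36 and the smallest was 0.21. Only 94 genes (0.518%) were called with a difference of at least 1, 54 higher and 40 lower. All 1780 called genes had arrays that did not overlap between the clones, which holds for 52.9% of all genes. The median difference of all genes was −0.01.

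Each array was then left out in turn, with the lone array of its clone assumed to vary like the pair of the other. Leaving out rIAPP a or rIAPP b cost most calls, with 697 and 703 genes, and without hIAPP a 1186 and without hIAPP b 1146 genes were called. In all 4 of these fits 544 genes (3.00%) were called, including all 94 that differed by at least 1. An exact permutation of 2 against 2 arrays cannot go below a two-sided p of 0.333, so the test rests on the spread shared over all genes. A gene called below held its call in all 4 fits unless the arrays whose removal ended the call, or those without which it held, are given beside it.

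**Figure D1:**
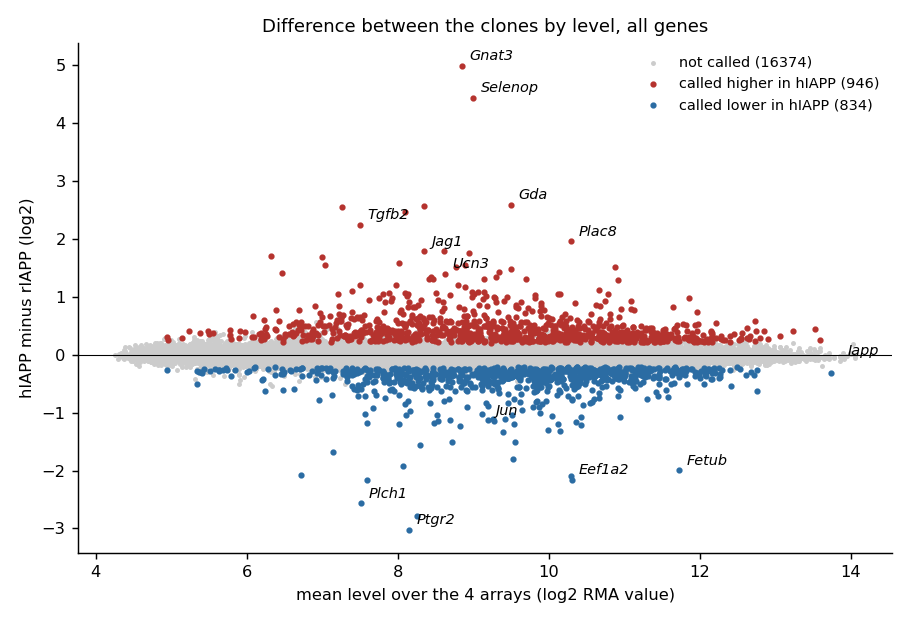
Difference between the clones (hIAPP minus rIAPP, log2) against the mean level over the 4 arrays (log2 RMA value), with 1 point for each of 18154 genes; red points were called higher in hIAPP (946) and blue points lower (834). Gnat3 and Selenop stand alone at the top with differences of 4.99 and 4.43, while Iapp lies at the bright end near 0.

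Gnat3, the alpha subunit of gustducin, the G protein that couples taste receptors to their effectors, showed the largest difference of all genes. Its level was 11.38 and 11.31 in the hIAPP arrays, against 6.49 and 6.23 in the rIAPP arrays (4.99, SE 0.0882, adjusted p = 4.88e-06). Selenop, a secreted protein that carries selenium between tissues, had 11.31 and 11.12 in the hIAPP arrays, against 6.81 and 6.76 in the rIAPP arrays (4.43, SE 0.0728, adjusted p = 4.88e-06). Both were bright in hIAPP, but in rIAPP they lay towards the lower quartile of the arrays (6.09 to 6.10). Signal over background was not assessed there, which leaves the size of such differences uncertain. The same holds for any gene below whose level in either clone lies near or under that quartile.

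Enzymes of small-molecule metabolism came next. Gda, which deaminates guanine, had 10.84 and 10.76 in the hIAPP arrays, against 8.21 and 8.21 in the rIAPP arrays (2.59), and the cytochrome P450 Cyp2c55 had 9.61 and 9.65 in the hIAPP arrays, against 7.04 and 7.07 in the rIAPP arrays (2.57). Secreted and membrane-bound growth signals formed another part of the top 15. Tgfb2, a ligand of the TGF-beta receptors, had 8.59 and 8.65 in the hIAPP arrays, against 6.34 and 6.42 in the rIAPP arrays (2.24). Pdgfc, a ligand of the PDGF alpha receptor, had 9.52 and 9.50 in the hIAPP arrays, against 7.82 and 7.62 in the rIAPP arrays (1.79), and the Notch ligand Jag1 had 9.21 and 9.27 in the hIAPP arrays, against 7.50 and 7.41 in the rIAPP arrays (1.79). In all 3 the pairs of arrays were far apart. Tgfb2 averaged 6.38 in rIAPP, towards the lower quartile of the arrays, so the size of its difference is uncertain.

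Kcnk16 encodes TALK-1, a tandem-pore potassium channel of pancreatic islets, with 9.57 and 9.76 in the hIAPP arrays, against 8.07 and 8.17 in the rIAPP arrays (1.54). Dpysl3, a cytoskeletal regulator of growth cones, had 9.88 and 9.77 in the hIAPP arrays, against 8.11 and 8.03 in the rIAPP arrays (1.75), and Plac8 had 11.32 and 11.23 in the hIAPP arrays, against 9.39 and 9.25 in the rIAPP arrays (1.96). The remaining genes of the 15 were the zinc-finger gene Zfp40 (2.55), Tmem35b (2.47), the mucin glycosyltransferase Gcnt3 (1.59), the phosphatidylinositol transfer protein Pitpnc1 (1.52) and Fam151a (1.52). Zfp40 averaged 5.99 in rIAPP, below those lower quartiles, and Tmem35b averaged 6.86 there, about as dim as Selenop.

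**Figure D2:**
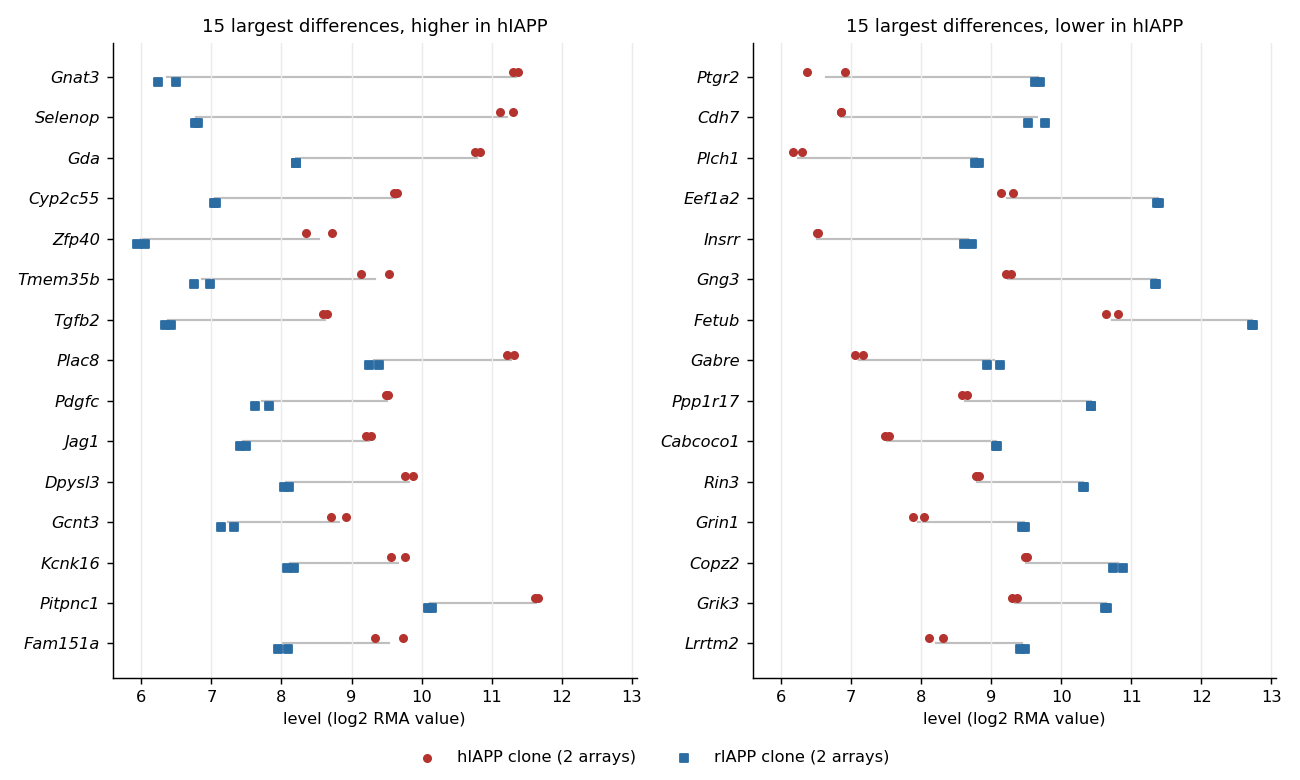
Levels (log2 RMA value) on each of the 4 arrays for the 15 genes with the largest positive and the 15 with the largest negative differences that the naming rule takes; red circles are hIAPP arrays, blue squares rIAPP arrays, and grey lines join the clone means. The arrays of a clone sit close together beside differences from 4.99 (Gnat3) to 1.52 (Fam151a) on the left and from −3.02 (Ptgr2) to −1.24 (Lrrtm2) on the right.

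On the lower side, the largest difference belonged to Ptgr2, a reductase of prostaglandins, with 6.91 and 6.37 in the hIAPP arrays, against 9.62 and 9.70 in the rIAPP arrays (−3.02, SE 0.158, adjusted p = 0.000176). The phospholipase C gene Plch1 had 6.30 and 6.17 in the hIAPP arrays, against 8.77 and 8.82 in the rIAPP arrays (−2.56), and Insrr, a receptor kinase related to the insulin receptor, had 6.51 and 6.52 in the hIAPP arrays, against 8.73 and 8.61 in the rIAPP arrays (−2.16). These 3 lay towards the lower quartile in hIAPP, with means of 6.64, 6.23 and 6.51, and their sizes are uncertain for that reason. Eef1a2, Gng3 and Fetub were above the median level of all genes (8.45) in both clones. Eef1a2, the translation elongation factor of neurons and muscle, had 9.14 and 9.31 in the hIAPP arrays, against 11.37 and 11.40 in the rIAPP arrays (−2.16), and the G protein subunit Gng3 had 9.28 and 9.21 in the hIAPP arrays, against 11.36 and 11.34 in the rIAPP arrays (−2.10). Fetub, a secreted protease inhibitor of the cystatin superfamily, had 10.64 and 10.81 in the hIAPP arrays, against 12.72 and 12.73 in the rIAPP arrays (−1.99).

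Genes of synapses and neurons were among the 15 largest falls. The NMDA receptor subunit Grin1 had 7.88 and 8.04 in the hIAPP arrays, against 9.49 and 9.44 in the rIAPP arrays (−1.50), and the kainate receptor subunit Grik3 had 9.30 and 9.37 in the hIAPP arrays, against 10.65 and 10.62 in the rIAPP arrays (−1.30). Gabre, a GABA-A receptor subunit, had 7.05 and 7.17 in the hIAPP arrays, against 8.94 and 9.13 in the rIAPP arrays (−1.93). The cell adhesion gene Cdh7 had 6.86 and 6.85 in the hIAPP arrays, against 9.52 and 9.77 in the rIAPP arrays (−2.79), and its size is uncertain too, since its hIAPP level was about as dim as that of Ptgr2. Differences were −1.24 for the synaptic adhesion gene Lrrtm2 and −1.81 for Ppp1r17, a phosphatase inhibitor best known from cerebellar Purkinje cells. Cabcoco1 (−1.57), the Rab5 exchange factor Rin3 (−1.51) and the coatomer subunit Copz2 (−1.32) complete the 15. All 30 genes of both directions kept their call after the median of their chromosomal neighbours was subtracted.

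Since Gnat3 led the comparison, the other genes of taste signalling were read too; they were chosen after their values were seen. Gustducin works with the receptors Tas1r1, Tas1r2 and Tas1r3, the subunits Gnb3 and Gng13, the phospholipase Plcb2, the inositol trisphosphate receptor Itpr3 and the channels Trpm5 and Trpm4. Of these 9 genes Trpm5 was called, lower in hIAPP, with 8.04 and 8.06 in the hIAPP arrays, against 8.46 and 8.31 in the rIAPP arrays (−0.34, adjusted p = 0.0243); the call ended at adjusted p = 0.0825 with hIAPP a left out, 0.0769 with hIAPP b and 0.133 with rIAPP a. The differences of the others lay between −0.21 (Plcb2, adjusted p = 0.243) and 0.17 (Tas1r2, adjusted p = 0.118). Gng13 averaged 5.75 in hIAPP and 5.91 in rIAPP, below the arrays' lower quartiles.

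Protein folding in the endoplasmic reticulum (ER) is the step at which a misfolding secretory peptide would first meet quality control. Of 25 ER chaperones and folding factors, 2 were higher and 0 lower, a share near the 9.81% of all genes called, and the list's median difference was −0.01. An unadjusted p under 0.05 was reached by 7 of the 25 and by 4267 of all 18154 genes. Sil1, the exchange factor of the chaperone BiP, had 10.66 and 10.62 in the hIAPP arrays, against 10.16 and 10.21 in the rIAPP arrays (0.45, SE 0.053, adjusted p = 0.00419); its neighbours on chromosome 18 had a median of 0.18. The prolyl isomerase Fkbp11 differed by 0.23 (adjusted p = 0.0467), a call that ended at adjusted p = 0.0761 with hIAPP a left out, 0.139 with hIAPP b, 0.236 with rIAPP a and 0.169 with rIAPP b. Hspa5, which encodes BiP and falls outside the naming rule, had 13.94 and 13.91 in the hIAPP arrays, against 13.95 and 13.95 in the rIAPP arrays (−0.03, 95% interval −0.15 to 0.09, adjusted p = 0.762).

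Among 24 enzymes of disulfide formation, 1 was higher and 2 lower, 12.5% called beside 9.81% of all genes. Pdia2, the pancreatic protein disulfide isomerase, had 8.68 and 8.52 in the hIAPP arrays, against 7.75 and 7.62 in the rIAPP arrays (0.91, adjusted p = 0.00119). Ero1a, an oxidase that recharges these isomerases, had 10.98 and 10.92 in the hIAPP arrays, against 11.47 and 11.43 in the rIAPP arrays (−0.50, adjusted p = 0.00272). Its beta-cell paralog Ero1b differed by −0.23 (adjusted p = 0.0439), and the call ended at adjusted p = 0.0627 with hIAPP a left out, 0.133 with hIAPP b, 0.177 with rIAPP a and 0.219 with rIAPP b. Of the 31 genes of ER-associated degradation, 2 were higher and 1 lower, Fam8a1 (0.35; call held only without hIAPP a or hIAPP b), Faf2 (0.34; call held only without hIAPP a) and Rnf145 (−0.29; call lost whichever array was left out). Counts for that list, higher and lower, were 2 and 0 without hIAPP a, 1 and 0 without hIAPP b, 0 and 0 without rIAPP a and 0 and 0 without rIAPP b. The 9.68% called in that list was close to the 9.81% of all genes. Fam8a1 and Faf2 lie among genes of chromosome 17 whose medians were 0.30 and 0.20, and neither was called after subtraction (adjusted p = 0.626 and 0.242).

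Sensors of the unfolded protein response and the effectors of the transcription factors ATF4 and CHOP had 5 of 42 members lower in hIAPP and 0 higher. That is 11.9% called, beside 9.81% of all genes and 14.3% of genes at or above the median level, where 32 members lie. Of all genes 4.59% were called lower, and the median of the list was −0.05. The stress transcription factor Atf3 averaged 8.03 ± 0.0455 in hIAPP and 8.62 ± 0.0316 in rIAPP (SD, n = 2 each; difference −0.59, SE 0.054, adjusted p = 0.00175). Mthfd2, a mitochondrial folate enzyme, had 10.89 and 10.75 in the hIAPP arrays, against 11.33 and 11.27 in the rIAPP arrays (−0.48; the call ended at adjusted p = 0.0507 with rIAPP a left out). The stress protein Nupr1 had 10.98 and 10.87 in the hIAPP arrays, against 11.37 and 11.28 in the rIAPP arrays (−0.40; the call ended at adjusted p = 0.05 with hIAPP b left out and 0.082 with rIAPP a), and differences were −0.29 for the lipoprotein receptor Vldlr (call lost whichever array was left out) and −0.21 for Eif2ak3, which encodes the sensor PERK (call lost whichever array was left out). Leaving out 1 array gave, higher and lower, 0 and 3 without hIAPP a, 1 and 2 without hIAPP b, 0 and 1 without rIAPP a and 0 and 3 without rIAPP b. Ddit3, which encodes CHOP and falls outside the naming rule, had 9.28 and 9.24 in the hIAPP arrays, against 9.28 and 9.36 in the rIAPP arrays (−0.06, 95% interval −0.19 to 0.07, adjusted p = 0.578).

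Protein clearance outside the ER and the cytosolic chaperones were read next, beside the 9.81% of all genes called. Most of these genes are bright, and of genes at or above the median level 14.3% were called. At that level lie 32 of 32 proteasome, 40 of 41 autophagy and lysosome and 28 of 32 chaperone genes. None of 32 proteasome genes was called, and their median was −0.04; in limma 1 of them had an unadjusted p under 0.05. The bright subunits Psmb2 and Psmd2 differed by 0.02 (adjusted p = 0.875) and −0.04 (adjusted p = 0.649). Of 41 autophagy and lysosome genes, 2 (4.88%) were higher and 0 lower, while 16 had an unadjusted p under 0.05: Wipi1, a phosphoinositide-binding autophagy protein, had 11.18 and 11.23 in the hIAPP arrays, against 10.82 and 10.79 in the rIAPP arrays (0.40; the call ended at adjusted p = 0.052 with rIAPP b left out), and Atg4b differed by 0.21 (the call ended at adjusted p = 0.116 with hIAPP a left out, 0.112 with hIAPP b, 0.239 with rIAPP a and 0.204 with rIAPP b). Of 32 cytosolic and mitochondrial chaperones, 3 (9.38%) were higher and 0 lower, Hspa12a (0.50; call held only without hIAPP b or rIAPP a), the cochaperone Bag3 (0.49; call held only without hIAPP a or hIAPP b) and the heat-shock factor Hsf2 (0.33; call held only without hIAPP b), with counts, higher and lower, of 1 and 0 without hIAPP a, 3 and 0 without hIAPP b, 1 and 0 without rIAPP a and 0 and 0 without rIAPP b.

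Among 23 proteases, secretases and precursor proteins tied to amyloids, 2 were higher and 1 lower. Bace2, the beta-cell homolog of beta-secretase, had 11.58 and 11.56 in the hIAPP arrays, against 11.21 and 11.15 in the rIAPP arrays (0.39; the call ended at adjusted p = 0.0593 with rIAPP b left out). The cysteine protease inhibitor Cst3 differed by 0.27 (call lost whichever array was left out) and the sorting receptor Sort1 by −0.25 (call lost whichever array was left out). Counts for this list, higher and lower, were 1 and 0 without hIAPP a, 1 and 0 without hIAPP b, 1 and 0 without rIAPP a and 0 and 0 without rIAPP b. Of 10 genes for amylin and its receptors, 2 were higher and 0 lower, both of them receptor activity-modifying proteins, partners of the calcitonin receptor family that set its ligand preference. Ramp1 had 7.34 and 7.31 in the hIAPP arrays, against 6.63 and 6.71 in the rIAPP arrays (0.65, SE 0.0554, adjusted p = 0.00126), and Ramp2 had 8.83 and 8.87 in the hIAPP arrays, against 8.31 and 8.47 in the rIAPP arrays (0.46; the call ended at adjusted p = 0.0511 with rIAPP a left out). The receptor gene Calcr, outside the naming rule, was dim in both, with 6.21 and 6.03 in the hIAPP arrays, against 6.13 and 6.13 in the rIAPP arrays.

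**Figure D3:**
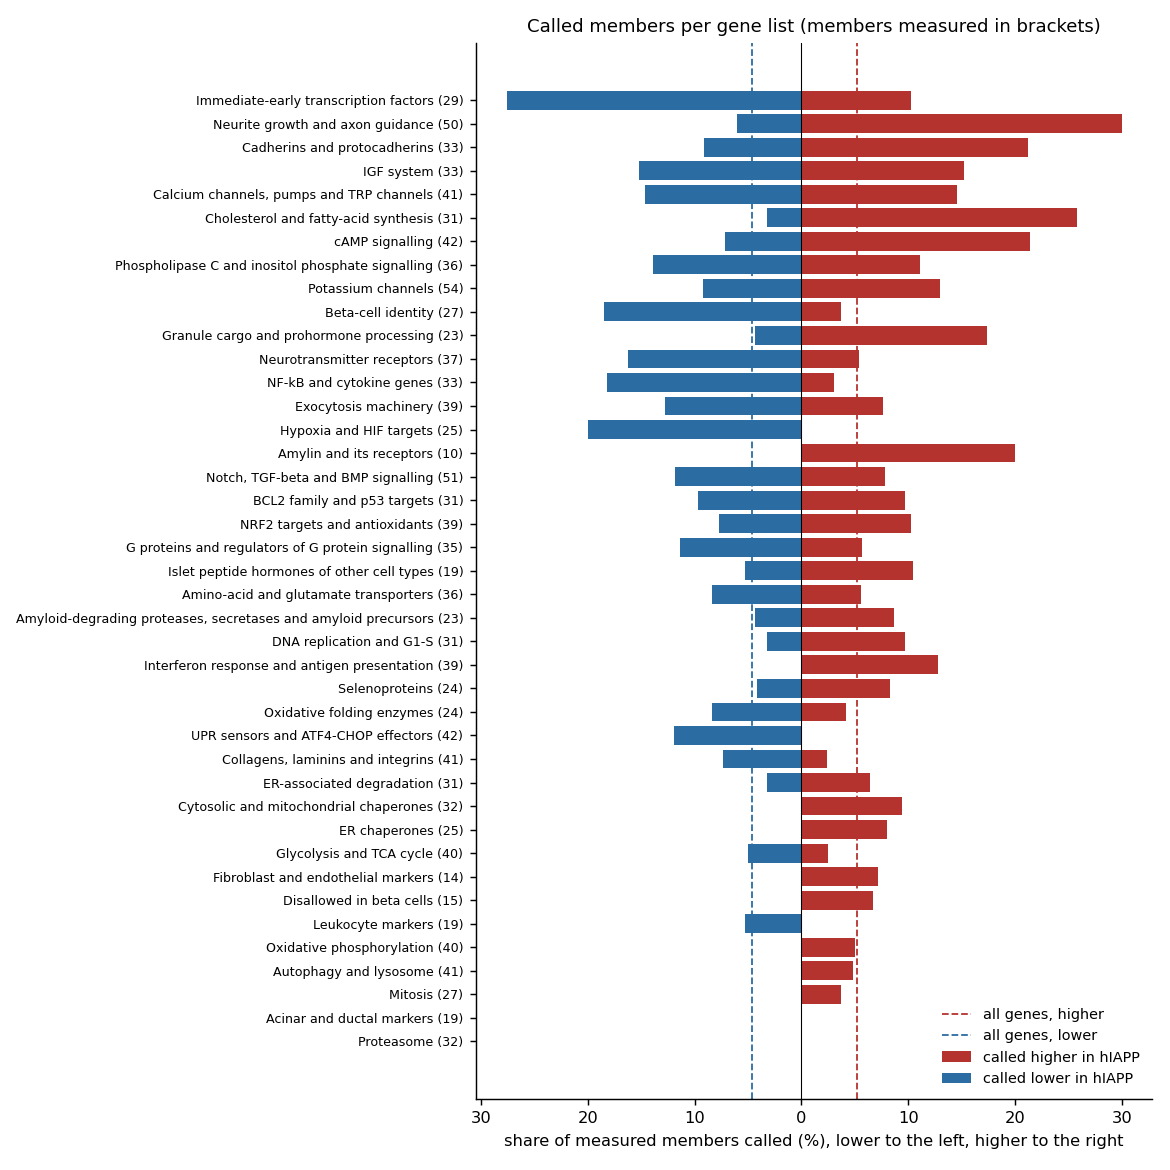
Share of measured members called lower (left, blue) and higher (right, red) in hIAPP for each of 41 gene lists, in percent, with the number of members in brackets; dashed lines mark all genes (5.21% higher, 4.59% lower). Neurite growth extends farthest to the right (30.0% higher) and immediate-early genes farthest to the left (27.6% lower), while proteasome and acinar and ductal lists have 0 called.

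The shares called in the lists lay above the 9.81% of all genes in 28 of 41, and 39 of 41 medians lay within 0.1 of 0. Bright genes were called more often, 14.3% of genes at or above the median level against 5.31% of those below it. The shares are descriptions and not tests of the lists. Counts of list members below are to be read beside the 5.21% of all genes called higher and the 4.59% called lower.

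Genes of neurite growth and axon guidance had the largest share of higher members among the 41 lists. Of 50 members, 15 (30.0%) were higher and 3 (6.0%) lower, with a median of 0.11. Beside Dpysl3, its relative Dpysl5 had 11.94 and 11.98 in the hIAPP arrays, against 11.44 and 11.44 in the rIAPP arrays (0.52). The phosphatase-related membrane protein Plppr3 had 10.24 and 10.36 in the hIAPP arrays, against 9.38 and 9.26 in the rIAPP arrays (0.98), and the guidance cue Sema3d had 9.24 and 9.19 in the hIAPP arrays, against 8.44 and 8.36 in the rIAPP arrays (0.82). The synaptic adhesion gene Nrxn3 had 7.44 and 7.60 in the hIAPP arrays, against 6.88 and 7.01 in the rIAPP arrays (0.57). In all 5 the arrays of the clones were apart by more than the arrays of either clone. With 1 array left out, the higher and lower counts were 10 and 3 without hIAPP a, 12 and 2 without hIAPP b, 8 and 3 without rIAPP a and 10 and 1 without rIAPP b, and 14 and 3 after neighbours were subtracted.

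The list of neurotransmitter receptors, which also holds the enzyme gene Gad2, had 2 of 37 members higher and 6 lower, with a median of 0.01. That is 21.6% called, beside 9.81% of all genes. Beside Grin1 and Grik3, the GABA-A receptor subunit Gabrq had 11.20 and 11.29 in the hIAPP arrays, against 11.85 and 11.87 in the rIAPP arrays (−0.61), and the dopamine receptor Drd2 had 8.13 and 8.11 in the hIAPP arrays, against 8.67 and 8.70 in the rIAPP arrays (−0.56). Gad2, the enzyme that makes GABA and a known beta-cell autoantigen, had 7.11 and 7.40 in the hIAPP arrays, against 6.69 and 6.68 in the rIAPP arrays (0.57; the call ended at adjusted p = 0.0622 with rIAPP a left out and 0.0689 with rIAPP b). Without rIAPP a the list had 0 higher and 6 lower, and without rIAPP b 0 and 5.

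Cadherins hold neighbouring cells together, and 7 of 33 were higher and 3 lower, 30.3% called beside 9.81% of all genes. N-cadherin, encoded by Cdh2, had 11.23 and 11.19 in the hIAPP arrays, against 10.28 and 10.30 in the rIAPP arrays (0.92). The protocadherin Pcdh7 had 7.69 and 7.79 in the hIAPP arrays, against 6.75 and 6.62 in the rIAPP arrays (1.06). Pcdh7 averaged 6.68 in rIAPP, towards the lower quartile of the arrays, so the size of its difference is uncertain. The atypical cadherin Fat4 had 8.71 and 8.56 in the hIAPP arrays, against 7.74 and 7.89 in the rIAPP arrays (0.82). In the other direction, next to Cdh7, Cdhr1, known from photoreceptors, had 9.35 and 9.49 in the hIAPP arrays, against 10.35 and 10.30 in the rIAPP arrays (−0.91). Members thus differed strongly in both directions, and 7 of the 10 calls held with any 1 array left out.

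Ion channels set the electrical activity that couples glucose to insulin release. Of 54 potassium channel genes 7 were higher and 5 lower, 22.2% called beside 9.81% of all genes. Kcnq1, a voltage-gated channel, had 10.63 and 10.72 in the hIAPP arrays, against 9.72 and 9.54 in the rIAPP arrays (1.05). Kcnj3, a channel opened by G proteins, had 10.25 and 10.38 in the hIAPP arrays, against 9.59 and 9.50 in the rIAPP arrays (0.77), and the tandem-pore channel Kcnk2 had 8.04 and 8.44 in the hIAPP arrays, against 7.21 and 7.33 in the rIAPP arrays (0.97). Kcnmb2, a subunit of calcium-activated channels, had 10.39 and 10.14 in the hIAPP arrays, against 9.49 and 9.52 in the rIAPP arrays (0.76). With Kcnk16, the 5 largest differences of this list were all higher in hIAPP. Leaving out an array gave, higher and lower, 5 and 3 without hIAPP a, 5 and 4 without hIAPP b, 5 and 2 without rIAPP a and 5 and 2 without rIAPP b. The subunits of the ATP-sensitive channel, outside the naming rule, were not called: Kcnj11 had 11.95 and 11.90 in the hIAPP arrays, against 11.95 and 11.93 in the rIAPP arrays (−0.02, adjusted p = 0.895), and Abcc8 had 12.34 and 12.38 in the hIAPP arrays, against 12.54 and 12.55 in the rIAPP arrays (−0.19, adjusted p = 0.0742).

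Calcium channels, pumps and TRP channels had 6 of 41 members higher and 6 lower, 29.3% called beside 9.81% of all genes. The auxiliary subunit Cacna2d4 had 8.63 and 8.62 in the hIAPP arrays, against 7.68 and 7.55 in the rIAPP arrays (1.01) and its relative Cacna2d2 8.60 and 8.59 in the hIAPP arrays, against 9.18 and 9.22 in the rIAPP arrays (−0.60). The T-type channel Cacna1g had 10.49 and 10.63 in the hIAPP arrays, against 11.26 and 11.29 in the rIAPP arrays (−0.71). The cation channel Trpm2 had 10.36 and 10.23 in the hIAPP arrays, against 9.61 and 9.68 in the rIAPP arrays (0.65), and Trpc6 had 7.15 and 7.15 in the hIAPP arrays, against 7.85 and 7.69 in the rIAPP arrays (−0.62). Members of the same family moved in opposite directions in both cases. The counts, higher and lower, were 4 and 4 without hIAPP a, 5 and 4 without hIAPP b, 3 and 4 without rIAPP a and 4 and 5 without rIAPP b.

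Cyclic AMP amplifies insulin secretion, and genes on both sides of its turnover were higher in hIAPP. Of 42 members 9 were higher and 3 lower, 28.6% called beside 9.81% of all genes. The cyclases that make it, Adcy1 with 11.06 and 11.06 in the hIAPP arrays, against 10.12 and 10.28 in the rIAPP arrays (0.86) and Adcy8 with 10.00 and 9.95 in the hIAPP arrays, against 9.46 and 9.35 in the rIAPP arrays (0.57), are both stimulated by calcium and calmodulin. The phosphodiesterases that degrade it included Pde7b with 9.56 and 9.48 in the hIAPP arrays, against 8.38 and 8.50 in the rIAPP arrays (1.08) and Pde4b with 9.13 and 8.98 in the hIAPP arrays, against 8.15 and 8.14 in the rIAPP arrays (0.91). The anchoring protein Akap6 went the other way, with 7.42 and 7.42 in the hIAPP arrays, against 8.56 and 8.68 in the rIAPP arrays (−1.20). Counts, higher and lower, were 5 and 3 without hIAPP a, 6 and 2 without hIAPP b, 5 and 2 without rIAPP a and 4 and 1 without rIAPP b, and 6 and 3 with neighbours subtracted.

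Signalling through phospholipase C had 4 of 36 members higher and 5 lower, led by Plch1. The receptor channel Itpr2 had 8.36 and 8.29 in the hIAPP arrays, against 7.75 and 7.82 in the rIAPP arrays (0.54), the phosphoinositide phosphatase Inpp4b had 8.80 and 8.88 in the hIAPP arrays, against 8.28 and 8.43 in the rIAPP arrays (0.49), and the phospholipase Plce1 had 7.58 and 7.56 in the hIAPP arrays, against 7.06 and 7.12 in the rIAPP arrays (0.48). Members higher and lower numbered 3 and 3 without hIAPP a, 4 and 3 without hIAPP b, 3 and 3 without rIAPP a and 3 and 1 without rIAPP b. Of 35 G protein subunits and regulators 2 were higher and 4 lower (17.1% called). Beside Gnat3 and Gng3, a called member was Rgs10, which speeds the shutdown of G proteins. Rgs10 had 9.08 and 9.08 in the hIAPP arrays, against 9.48 and 9.46 in the rIAPP arrays (−0.39). The regulators Rgs2 (−0.37) and Rgs7 (−0.34) were lower too, and their calls ended at adjusted p = 0.0801 with hIAPP b left out, 0.114 with rIAPP a and 0.166 with rIAPP b for Rgs2 and at adjusted p = 0.104 with hIAPP b left out, 0.0544 with rIAPP a and 0.154 with rIAPP b for Rgs7.

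Among 51 genes of Notch, TGF-beta and BMP signalling 4 were higher and 6 lower, 19.6% called beside 9.81% of all genes. Beside the ligands Tgfb2 and Jag1, the BMP ligand Bmp7 had 7.85 and 8.07 in the hIAPP arrays, against 9.11 and 9.09 in the rIAPP arrays (−1.14). Id4, an inhibitor of helix-loop-helix factors, had 9.60 and 9.61 in the hIAPP arrays, against 8.51 and 8.54 in the rIAPP arrays (1.08; 0.78 with its chromosome 17 neighbours subtracted). The receptor Acvr1c had 10.18 and 10.27 in the hIAPP arrays, against 10.73 and 10.74 in the rIAPP arrays (−0.51). Of the ligands named here, 2 were higher and 1 lower in hIAPP. Leaving out 1 array gave, higher and lower, 4 and 2 without hIAPP a, 4 and 4 without hIAPP b, 3 and 2 without rIAPP a and 3 and 2 without rIAPP b.

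The IGF system had 5 of 33 members higher and 5 lower, 30.3% called beside 9.81% of all genes. Its receptors differed in opposite directions: Insrr was lower, as above, while the insulin receptor Insr had 8.86 and 8.88 in the hIAPP arrays, against 8.20 and 8.28 in the rIAPP arrays (0.63, SE 0.0546, adjusted p = 0.00136). The binding protein Igfbp5 had 9.19 and 9.24 in the hIAPP arrays, against 9.99 and 10.06 in the rIAPP arrays (−0.81). Subunits of the downstream kinase PI3K differed less, Pik3cb by −0.35 (the call ended at adjusted p = 0.0653 with hIAPP a left out and 0.113 with rIAPP a) and Pik3r2 by 0.29 (the call ended at adjusted p = 0.085 with hIAPP b left out, 0.13 with rIAPP a and 0.137 with rIAPP b). Leaving out an array gave, higher and lower, 3 and 2 without hIAPP a, 1 and 4 without hIAPP b, 1 and 2 without rIAPP a and 1 and 3 without rIAPP b.

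Of 27 genes of beta-cell identity 1 was higher and 5 lower in hIAPP, 22.2% called beside 9.81% of all genes, and 18.5% lower beside 4.59%. The median was −0.05, with 22 members below 0. At or above the median level, where 25 of the 27 lie, 14.3% of genes were called. Ucn3, a peptide of mature beta cells, was the member called higher, with 9.30 and 9.34 in the hIAPP arrays, against 7.97 and 7.88 in the rIAPP arrays (1.40, SE 0.0565, adjusted p = 8.13e-05). The transcription factor Nkx6-1 had 8.90 and 8.99 in the hIAPP arrays, against 9.30 and 9.30 in the rIAPP arrays (−0.36; call held only without hIAPP a or hIAPP b), Foxa1 had 9.49 and 9.52 in the hIAPP arrays, against 9.83 and 9.85 in the rIAPP arrays (−0.33; call held only without hIAPP a or hIAPP b), Rfx3 had 11.54 and 11.44 in the hIAPP arrays, against 11.79 and 11.78 in the rIAPP arrays (−0.30; call held only without hIAPP a) and Rfx6 had 11.73 and 11.78 in the hIAPP arrays, against 12.01 and 11.99 in the rIAPP arrays (−0.24; call lost whichever array was left out). Nkx2-2, which the naming rule did not take, differed by −0.23 (call lost whichever array was left out). For the list the counts, higher and lower, were 1 and 3 without hIAPP a, 1 and 2 without hIAPP b, 1 and 0 without rIAPP a and 1 and 0 without rIAPP b. Nkx6-1 lies among genes of chromosome 14 with a median of −0.35 and differed by −0.01 from them (adjusted p = 0.944). The insulin genes were not called, Ins1 at −0.07 (adjusted p = 0.662) and Ins2 at −0.10 (adjusted p = 0.754), and neither was the insulin activator Mafa (−0.14, adjusted p = 0.237).

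In granule cargo and prohormone processing 4 of 23 members were higher and 1 lower, 21.7% called beside 9.81% of all genes. Chromogranin B (Chgb), an acidic protein of the granule core, had 13.72 and 13.76 in the hIAPP arrays, against 13.29 and 13.31 in the rIAPP arrays (0.44). The vesicular monoamine transporter Slc18a1 had 8.72 and 8.75 in the hIAPP arrays, against 8.03 and 8.13 in the rIAPP arrays (0.66), and carboxypeptidase M (Cpm) had 7.85 and 7.78 in the hIAPP arrays, against 7.27 and 7.36 in the rIAPP arrays (0.50). The granin Scg3 had 12.12 and 12.02 in the hIAPP arrays, against 12.47 and 12.45 in the rIAPP arrays (−0.39; the call ended at adjusted p = 0.0642 with rIAPP a left out and 0.0538 with rIAPP b). The synaptotagmin Syt7 differed by 0.29 (the call ended at adjusted p = 0.068 with hIAPP b left out, 0.0957 with rIAPP a and 0.121 with rIAPP b). Pcsk2, a convertase of the IAPP and insulin precursors, outside the naming rule, had 13.85 and 13.81 in the hIAPP arrays, against 13.87 and 13.88 in the rIAPP arrays (−0.04, adjusted p = 0.709).

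Of 39 genes of the exocytosis machinery 3 were higher and 5 lower, 20.5% called beside 9.81% of all genes. The small GTPase Rab3b had 9.49 and 9.47 in the hIAPP arrays, against 10.16 and 10.09 in the rIAPP arrays (−0.64), while Rab27b, another GTPase of secretory vesicles, had 9.15 and 9.15 in the hIAPP arrays, against 8.59 and 8.77 in the rIAPP arrays (0.48). The calcium sensor Syt9 had 9.11 and 9.08 in the hIAPP arrays, against 9.54 and 9.58 in the rIAPP arrays (−0.46). Its relative Syt11 had 9.57 and 9.58 in the hIAPP arrays, against 10.10 and 10.02 in the rIAPP arrays (−0.48), and Doc2b, which also binds calcium and SNARE proteins, had 7.06 and 7.14 in the hIAPP arrays, against 7.55 and 7.54 in the rIAPP arrays (−0.45). All 5 lower calls held with any 1 array left out, and of the 3 higher ones Rab27b did. Of 15 genes listed as normally silenced in beta cells, 1 (6.67%) was higher and 0 lower. Their median was 0.10, 11 lay above 0, and in limma 6 had an unadjusted p under 0.05. Lmo4, a LIM domain factor, differed by 0.28 (call held only without hIAPP a). Mgst1 (0.20, adjusted p = 0.0554) and Cat (−0.04, adjusted p = 0.673) were not called. Both were bright in these cells, with means in hIAPP and rIAPP of 12.66 and 12.46 for Mgst1 and 12.31 and 12.35 for Cat.

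Immediate-early genes answer growth factors, calcium and stress within minutes, and they had the largest share of lower members. Of 29 members 8 (27.6%) were lower and 3 (10.3%) higher, with a median of −0.01. The AP-1 subunit Jun led. It had 8.73 and 8.52 in the hIAPP arrays, against 9.73 and 9.78 in the rIAPP arrays (−1.13, SE 0.0764, adjusted p = 0.000507). Junb, another AP-1 subunit, had 7.96 and 7.89 in the hIAPP arrays, against 8.50 and 8.51 in the rIAPP arrays (−0.58). The phosphatase Dusp5, which inactivates ERK kinases, had 9.98 and 10.09 in the hIAPP arrays, against 10.61 and 10.65 in the rIAPP arrays (−0.60). With Atf3, which forms dimers with Jun, these calls held with any 1 array left out. Klf2 had 9.19 and 9.55 in the hIAPP arrays, against 8.78 and 8.79 in the rIAPP arrays (0.58; the call ended at adjusted p = 0.0953 with rIAPP a left out and 0.0918 with rIAPP b). With 1 array left out, the higher and lower counts were 3 and 5 without hIAPP a, 1 and 6 without hIAPP b, 0 and 5 without rIAPP a and 0 and 5 without rIAPP b.

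NF-kB and cytokine genes had 1 of 33 members higher and 6 lower, 21.2% called beside 9.81% of all genes. Tnfrsf11b, the decoy receptor osteoprotegerin, had 10.00 and 10.05 in the hIAPP arrays, against 10.91 and 10.88 in the rIAPP arrays (−0.87, SE 0.0525, adjusted p = 0.000309). The NF-kB subunits Nfkb2 (−0.43; call held only without rIAPP a) and Relb (−0.37; call held only without hIAPP b) were lower as well. So were the adaptor Myd88 (−0.28; call lost whichever array was left out) and the decoy receptor Il1r2 (−0.27; call lost whichever array was left out), with counts, higher and lower, of 0 and 1 without hIAPP a, 0 and 2 without hIAPP b, 0 and 2 without rIAPP a and 0 and 1 without rIAPP b. Interferon-response and antigen-presentation genes had 5 of 39 higher (12.8%), 0 lower and 30 above 0 (median 0.07). The RNA sensor Ifih1 had 7.83 and 7.82 in the hIAPP arrays, against 7.29 and 7.18 in the rIAPP arrays (0.59).

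The other 4 called genes of that list lost their call when 1 or another array was left out. Mx1 among them averaged 5.71 in rIAPP, below the lower quartile of the arrays, so the size of its difference is uncertain. The antiviral gene Oasl had 7.53 and 7.60 in the hIAPP arrays, against 7.07 and 6.78 in the rIAPP arrays (0.63; the call ended at adjusted p = 0.0563 with hIAPP b left out), and Mx1 had 6.18 and 6.05 in the hIAPP arrays, against 5.69 and 5.73 in the rIAPP arrays (0.41; the call ended at adjusted p = 0.0695 with rIAPP a left out and 0.0536 with rIAPP b). The chemokine Cxcl10 had 8.97 and 9.29 in the hIAPP arrays, against 8.57 and 8.56 in the rIAPP arrays (0.57; the call ended at adjusted p = 0.0761 with rIAPP a left out and 0.0819 with rIAPP b), and the immunoproteasome subunit Psmb8 had 10.03 and 9.96 in the hIAPP arrays, against 9.60 and 9.64 in the rIAPP arrays (0.38; the call ended at adjusted p = 0.0693 with rIAPP a left out and 0.0501 with rIAPP b). For the list the counts, higher and lower, were 5 and 0 without hIAPP a, 4 and 0 without hIAPP b, 2 and 0 without rIAPP a and 2 and 0 without rIAPP b, and 8 and 0 after neighbours were subtracted.

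Targets of hypoxia-inducible factor (HIF) had 5 of 25 members lower and 0 higher, with a median of −0.06. Among them were the oxygen-sensing hydroxylases that mark HIF for degradation, themselves HIF targets. Egln3 had 9.57 and 9.47 in the hIAPP arrays, against 10.58 and 10.57 in the rIAPP arrays (−1.06, SE 0.0578, adjusted p = 0.000214), and Egln1 had 10.36 and 10.33 in the hIAPP arrays, against 10.61 and 10.55 in the rIAPP arrays (−0.24; the call ended at adjusted p = 0.0841 with hIAPP a left out, 0.122 with hIAPP b, 0.229 with rIAPP a and 0.131 with rIAPP b). The collagen hydroxylase P4ha2 had 9.59 and 9.66 in the hIAPP arrays, against 9.95 and 9.91 in the rIAPP arrays (−0.31; the call ended at adjusted p = 0.0656 with hIAPP a left out, 0.124 with rIAPP a and 0.0864 with rIAPP b), and Insig2, a regulator of sterol synthesis, differed by −0.42 (the call ended at adjusted p = 0.0589 with rIAPP a left out and 0.055 with rIAPP b). Insig2 lies in a stretch of chromosome 13 with a median of −0.25 and was not called after subtraction (adjusted p = 0.157). Together with Ero1a these are the 5 members called, and the counts, higher and lower, were 0 and 3 without hIAPP a, 0 and 4 without hIAPP b, 0 and 2 without rIAPP a and 0 and 2 without rIAPP b.

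Promoters of this list were searched on both strands for the core of the hypoxia element, ACGTG, those of the ATF4 and CHOP list for the ATF4 and C/EBP composite element, TTGCATCA, and those of the immediate-early list for the AP-1 element, TGANTCA, and the cyclic AMP response element, TGACGTCA. Windows ran from 250 bases before to 50 after the start in RefSeq's GRCr8 annotation. ACGTG was found in 14 of 21 hypoxia-list promoters, beside 21.8% of the 14577 promoters of genes compared, and in 3 of the 4 called members with a window (Egln1, P4ha2 and Insig2). TTGCATCA was found in 5 of 35 promoters of the ATF4 and CHOP list, beside 0.665% of all, and in 1 of 4 called members with a window, Nupr1. In the immediate-early list TGANTCA was found in 0 of 17 promoters, beside 6.41% of all, and TGACGTCA in 4 of 17, beside 2.42% of all, among them 1 of the 8 called members with a window, Ier2. None of these motifs contains another. The promoters of P4ha2 and Nupr1 are shown, 5′ to 3′ in the direction of the gene, because each carries its motif in a called member, and capitals mark the motif. The P4ha2 window is chr10:38743644-38743943 on the plus strand and the Nupr1 window chr1:190645852-190646151 on the minus strand. A match is a description of the sequence and no measurement of binding.
P4ha2: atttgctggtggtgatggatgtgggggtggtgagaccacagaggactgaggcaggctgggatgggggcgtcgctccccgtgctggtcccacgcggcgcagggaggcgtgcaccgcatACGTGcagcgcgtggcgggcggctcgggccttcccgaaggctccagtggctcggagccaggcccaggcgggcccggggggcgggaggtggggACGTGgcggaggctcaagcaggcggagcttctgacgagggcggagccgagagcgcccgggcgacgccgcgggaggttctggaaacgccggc
Nupr1: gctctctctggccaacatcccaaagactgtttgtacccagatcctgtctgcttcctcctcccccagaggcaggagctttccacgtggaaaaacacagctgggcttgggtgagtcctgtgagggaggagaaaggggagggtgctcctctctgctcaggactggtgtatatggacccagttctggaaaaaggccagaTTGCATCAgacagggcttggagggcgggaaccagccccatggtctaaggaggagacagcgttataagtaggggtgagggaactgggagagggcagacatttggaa

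Cholesterol and fatty-acid synthesis had 8 of 31 members higher and 1 lower, with a median of 0.08. That is 29.0% called, beside 9.81% of all genes. At or above the median level, where 29 members lie, 14.3% of genes were called. Hsd17b7, a ketosteroid reductase, had 10.46 and 10.34 in the hIAPP arrays, against 9.85 and 9.86 in the rIAPP arrays (0.54), and the sterol reductase Tm7sf2 had 10.43 and 10.44 in the hIAPP arrays, against 9.91 and 9.91 in the rIAPP arrays (0.53). Fdft1, squalene synthase, had 12.37 and 12.31 in the hIAPP arrays, against 11.93 and 11.98 in the rIAPP arrays (0.39; the call ended at adjusted p = 0.0597 with rIAPP a left out), and Dhcr7, which catalyses a last step of cholesterol synthesis, had 11.57 and 11.66 in the hIAPP arrays, against 11.27 and 11.21 in the rIAPP arrays (0.37; the call ended at adjusted p = 0.0537 with rIAPP a left out and 0.0819 with rIAPP b). Cyp51 differed by 0.39 (the call ended at adjusted p = 0.0966 with hIAPP a left out, 0.196 with rIAPP a and 0.106 with rIAPP b). The counts, higher and lower, were 5 and 0 without hIAPP a, 6 and 1 without hIAPP b, 2 and 0 without rIAPP a and 3 and 0 without rIAPP b, and 5 and 0 with neighbours subtracted. The sterol element TCACNCCAC was found in 0 of 25 promoters of this list, beside 1.08% of all, in the same windows on both strands.

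**Figure D4:**
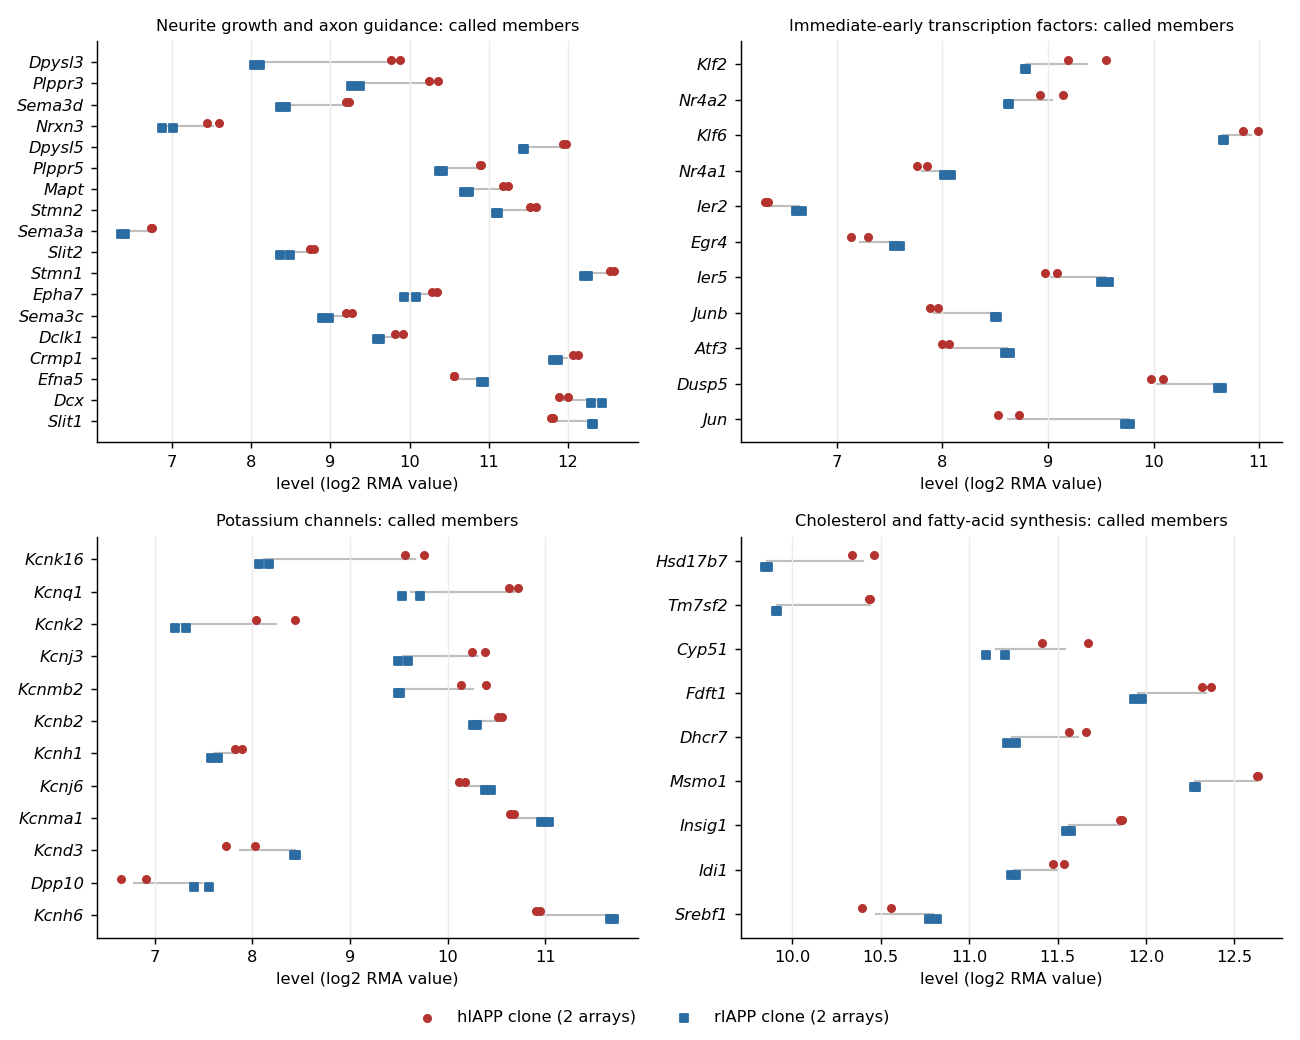
Levels (log2 RMA value) on each of the 4 arrays for the called members of 4 lists, ordered by difference; red circles are hIAPP arrays, blue squares rIAPP arrays and grey lines join the clone means. Neurite genes and potassium channels run from Dpysl3 (1.75) and Kcnk16 (1.54) at the top to members lower in hIAPP, immediate-early genes are mostly lower (8 of 11 called), and 8 of 9 called sterol and fatty-acid genes are higher.

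NRF2 targets and antioxidants had 4 of 39 higher and 3 lower, 17.9% called beside 9.81% of all genes. Aldh1a1, which oxidises retinaldehyde, had 10.38 and 10.32 in the hIAPP arrays, against 9.05 and 9.04 in the rIAPP arrays (1.31, SE 0.0525, adjusted p = 8.13e-05). The metallothioneins Mt1 (−0.38; call held only without hIAPP b) and Mt2A (−0.39; call held only without hIAPP a or rIAPP a) were lower. The transferase Gstm1 (0.34; call held only without hIAPP a) and the quinone reductase Nqo1 (0.23; call lost whichever array was left out) were higher. Counts for the list were, higher and lower, 2 and 1 without hIAPP a, 2 and 1 without hIAPP b, 1 and 1 without rIAPP a and 1 and 0 without rIAPP b. Of 24 selenoproteins and their factors 2 were higher and 1 lower (12.5% called). Selenop was alone in its size: the others were Selenom (−0.37; the call ended at adjusted p = 0.0621 with hIAPP b left out and 0.097 with rIAPP b) and Secisbp2, a factor that reads the selenocysteine codon (0.25; the call ended at adjusted p = 0.0605 with hIAPP a left out, 0.133 with hIAPP b, 0.223 with rIAPP a and 0.137 with rIAPP b).

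Survival genes moved in both directions, with 3 of 31 BCL2-family and p53-target genes higher and 3 lower. That is 19.4% called, beside 9.81% of all genes. The anti-apoptotic gene Bcl2 had 9.59 and 9.49 in the hIAPP arrays, against 10.17 and 10.11 in the rIAPP arrays (−0.60, SE 0.0605, adjusted p = 0.00231); its neighbours on chromosome 13 had a median of −0.25, and the difference after subtraction was −0.35 (adjusted p = 0.0184). The p53 targets Gadd45a and Cdkn1a differed by 0.37 (the call ended at adjusted p = 0.0721 with rIAPP b left out) and 0.32 (the call ended at adjusted p = 0.0771 with hIAPP b left out, 0.136 with rIAPP a and 0.1 with rIAPP b). The caspases Casp4 (−0.30) and Casp2 (0.26) lost their calls whichever of the 4 arrays was left out. Casp4 averaged 5.21 in hIAPP and 5.52 in rIAPP, below the lower quartiles of the arrays. Counts for the list, higher and lower, were 2 and 1 without hIAPP a, 1 and 1 without hIAPP b, 1 and 1 without rIAPP a and 0 and 1 without rIAPP b.

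Of 27 mitosis genes 1 (3.70%) was higher and 0 lower, Kif20a, a mitotic kinesin (0.24; the call ended at adjusted p = 0.0766 with hIAPP a left out, 0.0886 with hIAPP b, 0.165 with rIAPP a and 0.162 with rIAPP b). It lies on chromosome 18 among genes with a median of 0.20. All 27 mitosis genes lie at or above the median level, where 14.3% of genes were called. Of 31 genes of DNA replication and the G1-S transition 3 were higher and 1 lower, 12.9% called beside 9.81% of all genes, and 11 had an unadjusted p under 0.05. The higher ones include the cyclin-dependent kinase inhibitor Cdkn1a, which differed by 0.32 and held its call only without hIAPP a. The lower one was the cyclin Ccne2, which differed by −0.24 and lost its call whichever array was left out. The kinase Cdk6 had 8.59 and 8.58 in the hIAPP arrays, against 7.83 and 8.07 in the rIAPP arrays (0.64), and its partner cyclin Ccnd2 had 13.24 and 13.20 in the hIAPP arrays, against 12.90 and 12.92 in the rIAPP arrays (0.32; the call ended at adjusted p = 0.0515 with hIAPP a left out, 0.0934 with rIAPP a and 0.0806 with rIAPP b). Both lie on chromosome 4, where their neighbours had medians of 0.14 and 0.13. Members higher and lower numbered 2 and 0 without hIAPP a, 2 and 0 without hIAPP b, 1 and 0 without rIAPP a and 1 and 0 without rIAPP b.

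Markers of cell types other than beta cells are set beside the 9.81% of all genes called. Most of them are dim, and of genes below the median level 5.31% were called. At or above that level lie 4 of 19 endocrine and 2 of 19 acinar and ductal markers. The same holds for 2 of 19 leukocyte and 2 of 14 fibroblast and endothelial markers. Of 19 peptide hormones and markers of other islet and gut endocrine cells 2 were higher and 1 lower (15.8% called): Fev, a transcription factor of serotonin-producing and endocrine progenitor cells, had 8.99 and 9.13 in the hIAPP arrays, against 8.70 and 8.66 in the rIAPP arrays (0.39; the call ended at adjusted p = 0.0691 with rIAPP a left out and 0.0893 with rIAPP b), Cck differed by 0.35 (the call ended at adjusted p = 0.0823 with rIAPP b left out) and Gast by −0.38 (the call ended at adjusted p = 0.0723 with hIAPP a left out, 0.159 with rIAPP a and 0.157 with rIAPP b). None of 19 acinar and ductal markers was called by limma, with 3 at an unadjusted p under 0.05 and a median of 0.09; the ductal keratin Krt7 was bright in both, with 11.90 and 12.06 in the hIAPP arrays, against 11.96 and 11.72 in the rIAPP arrays (adjusted p = 0.444). Of 19 leukocyte markers 0 were higher and 1 (5.26%) lower, Cd68 (−0.23; the call ended at adjusted p = 0.107 with hIAPP a left out, 0.0932 with hIAPP b, 0.223 with rIAPP a and 0.152 with rIAPP b). Among fibroblast and endothelial markers the junction protein Esam was the only one of 14 called (7.14%), with 10.71 and 10.66 in the hIAPP arrays, against 10.10 and 10.13 in the rIAPP arrays (0.57). Whether any of these shares in the other differences was not tested.

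MicroRNA genes were outside the naming rule and were chosen after their values were seen. The array reads RNA at the locus, so a value here may stem from the precursor or a host transcript and does not measure the mature microRNA. Of 363 microRNA genes 14 (3.86%) were called, a smaller share than the 9.81% of all genes and the 5.31% of genes below the median level. The calls were 7 higher and 7 lower, and 6 held with any 1 array left out. The median level of the 363 was 5.92. The mature sequences of those 6 loci are shown, followed by those of a pair of neighbouring loci and a pair with the same seed, from RefSeq, with bases 2 to 8, the seed that pairs with targets, in capitals.
rno-miR-224-5p: cAAGUCACuagugguuccguuu
rno-miR-3547: uGAGCACCaccccucucucagau
rno-miR-21-5p: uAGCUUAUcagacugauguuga
rno-miR-344b-1-3p: gAUAUAACcaaagcccgacugu
rno-miR-7a-5p: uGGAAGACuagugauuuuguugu
rno-miR-129-5p: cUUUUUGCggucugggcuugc
rno-miR-200c-3p: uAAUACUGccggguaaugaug
rno-miR-141-3p: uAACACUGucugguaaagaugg
rno-let-7b-5p: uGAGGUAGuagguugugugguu
rno-let-7i-5p: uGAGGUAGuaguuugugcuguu

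The mature miR-224-5p lies at chrX:155107183-155107204 on the minus strand (GRCr8), within the gene Gabre. Mir224 had 5.53 and 5.83 in the hIAPP arrays, against 7.68 and 7.83 in the rIAPP arrays (−2.07, SE 0.106, adjusted p = 0.000162), and its host Gabre differed by −1.93. In hIAPP the Mir224 row lay below the arrays' lower quartile, so that the size of its difference is uncertain, and reads from the host cannot be told apart from those of the microRNA. Mir3547, at chr10:14766777-14766799 on the minus strand within Baiap3, had 8.67 and 8.79 in the hIAPP arrays, against 10.03 and 10.09 in the rIAPP arrays (−1.33); Baiap3 itself was not among the genes compared.

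Mir21, whose mature 5p strand lies at chr10:71902653-71902674 on the minus strand, had 8.45 and 8.38 in the hIAPP arrays, against 7.32 and 7.38 in the rIAPP arrays (1.07, adjusted p = 0.000171). Its neighbour Vmp1, an autophagy gene, averaged 11.01 ± 0.0353 in hIAPP and 11.01 ± 0.0217 in rIAPP (SD, n = 2 each; difference 0.00, adjusted p = 0.999). The difference at Mir21 was thus not seen at Vmp1. Mir8, the file's symbol for the locus at chr1:142215818-142215840 on the plus strand that encodes miR-7a, a microRNA abundant in islets, had 7.19 and 7.07 in the hIAPP arrays, against 7.62 and 7.72 in the rIAPP arrays (−0.54). Mir344b-1, with its 3p strand at chr1:124035684-124035705 on the minus strand, had 7.95 and 7.83 in the hIAPP arrays, against 7.22 and 7.21 in the rIAPP arrays (0.68), and Mir129-1, with its 5p strand at chr4:58589716-58589736 on the plus strand, had 8.20 and 8.21 in the hIAPP arrays, against 8.65 and 8.69 in the rIAPP arrays (−0.47).

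Mir200c and Mir141 lie beside each other on chromosome 4, at chr4:159209969-159209989 on the minus strand and chr4:159209540-159209561 on the minus strand for their 3p strands, and were both higher, by 0.46 (the call ended at adjusted p = 0.0759 with rIAPP a left out and 0.0733 with rIAPP b) and 0.32 (the call ended at adjusted p = 0.0778 with hIAPP a left out, 0.145 with rIAPP a and 0.0995 with rIAPP b). Their neighbours had a median of 0.14, and their seeds, AAUACUG and AACACUG, differ. Mirlet7b and Mirlet7i share the seed GAGGUAG and lie apart on chromosome 7, at chr7:118684044-118684065 on the plus strand and chr7:60527935-60527956 on the minus strand. Both were lower, with differences of −0.33 (the call ended at adjusted p = 0.109 with hIAPP a left out, 0.129 with hIAPP b and 0.182 with rIAPP a) and −0.33 (the call ended at adjusted p = 0.0734 with hIAPP a left out, 0.155 with hIAPP b and 0.21 with rIAPP b).

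Many small differences followed the order of genes on the chromosomes, read here from the GRCr8 annotation because the labels name no build for the array. Over 9072 placed genes at or above the median level, chromosome 16 had a median difference of 0.18, with 90.0% of its 279 genes above 0 and 87 called higher against 2 lower. Chromosome 18 had a median of 0.15, with 87.4% of 231 genes above 0 and 68 higher against 7 lower. On chromosome 20 the median was −0.10, 20.4% of 270 genes were above 0, and 11 were higher against 32 lower. Whole chromosomes thus lay off 0 by amounts under the smallest called difference of 0.21.

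Shorter stretches stood farther from 0. On chromosome 17 the 51 genes from Wnk2 to Exoc2 had a median of 0.32, 50 of them above 0, with 38 called higher and 1 lower, among them Id4 and the glycosyltransferase Gcnt2 (0.92). On chromosome 9 the 51 genes from Tex30 to Cyp20a1 had a median of 0.29, with 30 higher and 2 lower, including Tmem237 (0.54) and the ubiquitin ligase Hecw2 (0.51). On chromosome 4 the stretch from Actr3b to Akap9 had a median of 0.25, with 28 higher and 1 lower. It holds Gnat3, the kinase gene Cdk14 with 9.46 and 9.50 in the hIAPP arrays, against 8.34 and 8.27 in the rIAPP arrays (1.17), and Sema3d. With the neighbours' median subtracted, Gnat3 differed by 4.75 and Sema3d by 0.58.

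In the other direction, the 51 genes from Idua to Septin11 at the start of chromosome 14 had a median of −0.35, with 2 above 0, 1 called higher and 41 lower. Klhl8, a ubiquitin ligase adaptor, had 8.66 and 8.73 in the hIAPP arrays, against 9.86 and 9.84 in the rIAPP arrays (−1.15), and Fras1 differed by −0.56. At the start of chromosome 13 the genes from Dsel to Tmcc2 had a median of −0.25, with 1 higher and 25 lower. There Phlpp1, a phosphatase that inactivates AKT, had 9.37 and 9.38 in the hIAPP arrays, against 10.40 and 10.37 in the rIAPP arrays (−1.01), Pign differed by −0.91 and Vps4b, an ATPase of the ESCRT machinery, by −0.83. The stretches farthest below 0 after these were 2 on chromosome 20, at −0.14 and −0.13, with 1 higher and 8 lower, and 4 higher and 9 lower.

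**Figure D5:**
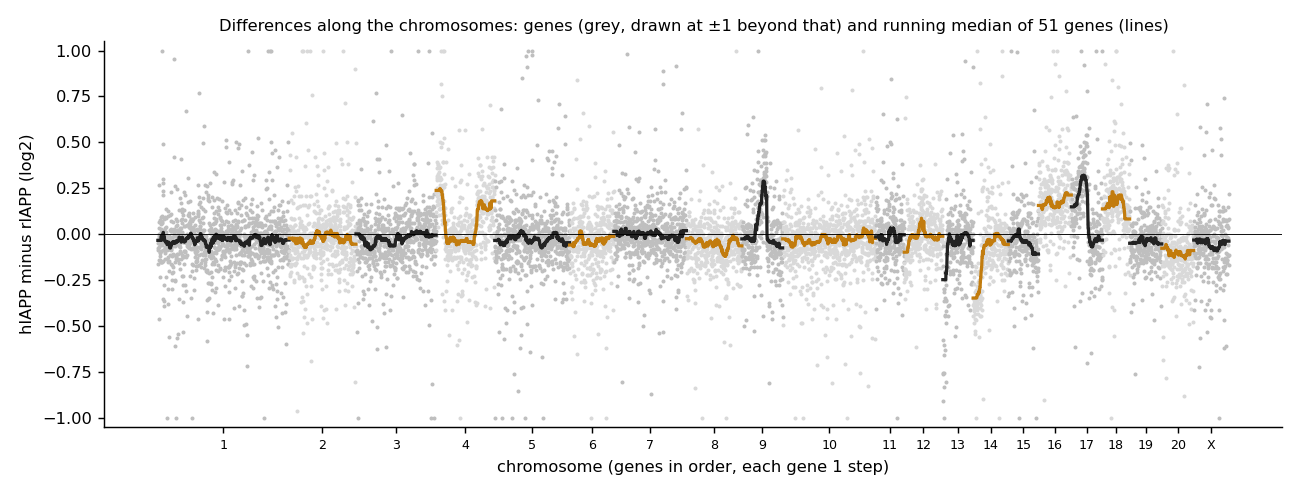
Difference (hIAPP minus rIAPP, log2) of each of 9072 genes in chromosomal order (grey points, drawn at ±1 where beyond) with the running median of 51 genes (lines, black and orange for alternate chromosomes). The line stands above 0 over all of chromosomes 16 and 18 and over parts of 4, 9 and 17, where it reaches 0.32, and below 0 at the starts of 13 and 14, where it reaches −0.35.

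At a distance of at least 0.1 from 0, a bound chosen after the data were seen, the running median covered 1238 genes, 13.6% of those placed. Of these, 464 (37.5%) were called, against 834 of the other 7834 (10.6%), so that 35.7% of the calls at this level of brightness lay in such stretches. The stretches were picked by the same differences that decide the calls. A larger share of calls there is therefore built into the choice, and the counts are a description only. Calls of at least 1 made up 15 of these 1238 genes (1.21%) and 46 of the other 7834 (0.587%). Subtracting the neighbours' median from every gene left 1483 called, 1155 of them among the 1780. DNA copy number was not measured, and the stretches, like every value above, belong to 1 clone of each kind.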

How the data were processed

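Biotin-labelled target from total RNA of both clones was read on Affymetrix rat gene arrays, 1 colour and 1 sample an array. The authors deposited 1 summarised value per transcript cluster and array, made with Affymetrix Expression Console and RMA per the submitters' processing notes (no version is named). RMA includes a background correction, a quantile normalisation and a summary over probes on a log2 scale. These deposited log2 values were used without further normalisation. Rows were named through the platform table and the GRCr8 annotation (18394 through Entrez IDs, 78 through symbols, 32 through synonyms, 7 kept as given), and 32 symbols changed. Of the rest, 575 rows had several symbols and 17599 none.

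The fit used limma (version 3.58.1, R 4.3.3) on the 4 arrays with clone as the only term, which left 2 residual and 4.50 prior degrees of freedom. A gene was called if its p, adjusted by Benjamini-Hochberg over all 18154 genes, was under 0.05, and every adjusted p in the text is from limma. In 20 simulated data sets of 18154 genes, 50 genes were changed per size. The fit for hIAPP against rIAPP recovered 33.7% of differences of 0.25, 99.5% of 0.5 and 100% of 1. Of its calls, 10.6% were false, a share above the threshold of 0.05. Errors in the simulation were independent between genes, and far fewer genes changed than the 1780 called in the data. These rates may therefore not carry over to the data.

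Named genes are Iapp, the 15 largest positive and negative differences among called genes without overlap whose brighter clone was at or above the median level (8.45) and which are no predicted locus, small RNA or olfactory receptor, and up to 5 called members of each of 41 lists by size. Where under 2 members of a list were called, up to 2 were named by level. Stretches are the 4 in each direction whose running median over 51 genes was farthest from 0. The members and lists were chosen with earlier results of these data known. The lists hold 1277 measured genes. Promoters and microRNAs come from RefSeq tables of GRCr8, and Python 3.11.15 was used for counts and figures. The number of arrays limits the precision. Alternatives changed the arrays in the fit, the variance prior, the filter on dim genes, the row per symbol and the scaling. Others changed the rows tested, the block and the neighbours, and left out each array in turn. The vector-clone arrays entered only the alternative with all 6 gene-level arrays in the fit.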

Additional observations from a re-analysis of the deposited data

How the results depend on the processing

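The number of genes called with a difference of at least 1 was 94, and 81 to 97 under the alternatives that tested genes, while 131 of 36685 rows passed when all rows were tested. The count of smaller calls depended on the test. An intensity trend in the variance prior gave 2754 genes, 1374 of them lower. Testing the genes at or above the median level alone gave 1315 lower. Testing all 36685 rows gave 595, with 346 higher and 249 lower. Leaving out 1 array gave 697 to 1186 genes, 380 to 657 higher and 288 to 529 lower. Iapp passed the threshold with the intensity trend (−0.10, adjusted p = 0.022) and with neighbours subtracted (−0.28, adjusted p = 0.0204), and missed it in the other alternatives (adjusted p of 0.118 to 0.609). The labels do not say if arrays with the same letter share a batch, and this was not tested. Deviations of hIAPP a and rIAPP a from their clone means correlated at 0.000337 over genes. The replicate block gave 2229 genes, 1772 shared, with −0.10 for Iapp. Of the 198 named genes, 31 lost their call with neighbours subtracted and 38 to 67 with 1 array left out. Signs turned for genes without a call, Psmb2 with 1 array left out (−0.0171 to 0.0556, below 0 without hIAPP a or rIAPP a), Cat (0.0212) and Cd4 (−0.0504) with neighbours subtracted, and for the called Uqcrfs1 (−0.0196) with neighbours subtracted. The cause was not tested. Differences near 0.25 are often missed at 2 arrays a clone, and signal over background was not assessed.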

Other observations

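Of 41 collagens, laminins and integrins, proteins of adhesion to matrix, 1 was higher and 3 lower, 9.76% called beside 9.81% of all genes. The integrin Itga1, a collagen receptor, had 7.19 and 7.23 in the hIAPP arrays, against 8.18 and 8.08 in the rIAPP arrays (−0.92, SE 0.0572, adjusted p = 0.00034). The laminin chain Lamb3 had 8.54 and 8.54 in the hIAPP arrays, against 7.89 and 7.97 in the rIAPP arrays (0.61). Integrin Itgb5 differed by −0.32 (the call ended at adjusted p = 0.0745 with hIAPP a left out, 0.112 with hIAPP b and 0.167 with rIAPP a) and laminin Lamc1 by −0.30 (the call ended at adjusted p = 0.07 with hIAPP b left out, 0.111 with rIAPP a and 0.114 with rIAPP b). Of 36 genes listed as transporters of amino acids and glutamate 2 were higher and 3 lower (13.9% called). The higher ones include the vesicular monoamine transporter Slc18a1 (0.66), described above with the granule genes. Slc7a7, a light chain for cationic and neutral amino acids, had 7.15 and 7.02 in the hIAPP arrays, against 6.25 and 6.37 in the rIAPP arrays (0.77). Its rIAPP mean of 6.31 lay towards the lower quartile of the arrays, so the size of its difference is uncertain. Slc7a14 had 9.72 and 9.82 in the hIAPP arrays, against 10.44 and 10.47 in the rIAPP arrays (−0.69). Slc38a4 differed by −0.30 (the call ended at adjusted p = 0.0803 with hIAPP b left out, 0.138 with rIAPP a and 0.108 with rIAPP b).

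In energy metabolism 1 of 40 glycolysis and TCA-cycle genes was higher and 2 lower, 7.50% called beside 9.81% of all genes. Ldhb, a lactate dehydrogenase subunit, had 10.28 and 10.26 in the hIAPP arrays, against 9.82 and 9.88 in the rIAPP arrays (0.42; 0.24 with its chromosome 4 neighbours subtracted). The enolase Eno2 had 11.50 and 11.57 in the hIAPP arrays, against 11.97 and 11.87 in the rIAPP arrays (−0.39; the call ended at adjusted p = 0.0508 with hIAPP a left out and 0.0799 with rIAPP a), and the aldolase Aldoc differed by −0.27 (the call ended at adjusted p = 0.0745 with hIAPP a left out, 0.0991 with hIAPP b, 0.188 with rIAPP a and 0.0854 with rIAPP b). Of 40 genes of oxidative phosphorylation 2 were higher and 0 lower, Ndufb3 (0.51; call held only without hIAPP b) and Uqcrfs1 (0.22; call lost whichever array was left out), with counts, higher and lower, of 0 and 0 without hIAPP a, 1 and 0 without hIAPP b, 0 and 0 without rIAPP a and 0 and 0 without rIAPP b. Both lie among genes whose medians were 0.26 and 0.24, and neither was called after subtraction (adjusted p = 0.195 and 0.861).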
